A study of Mus musculus with 4 samples.

Results

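The joint transcription factors described here were Osr1, Osr2, Creb5, Erg, Nfatc1, Trps1, Barx1, Barx2 and Foxp1, 9 of the 32285 genes counted in this series, taken as a named list. The study excised the presumptive knee joint region from mouse hindlimbs, dissociated it with collagenase D and counted transcripts in single cells by droplet 3' RNA sequencing. It had 4 libraries, 1 per condition, with 100344565, 84188147, 97110697 and 91574038 UMIs. They came from an E13.5 control without Cre, an E14.5 control without Cre, an E14.5 library of genotype Prx1Cre;Glut1f/f;Glut3f/+, and an E14.5 library called DCKO, of genotype Prx1Cre;Glut1f/f;Glut3f/f. Prx1Cre acts in limb bud mesenchyme, so blood, endothelial and muscle cells of the mutants were not its targets. Glut1 and Glut3 are the glucose transporters encoded by Slc2a1 and Slc2a3. How many embryos were pooled for a library was not given in the sources used here. Values over the 4 libraries are given with the E13.5 control first and the E14.5 control second, then Prx1Cre;Glut1f/f;Glut3f/+, then DCKO.

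Synovial joints form where cells between neighbouring cartilage elements leave the chondrocyte path and flatten into an interzone, which expresses the growth factor gene Gdf5 and gives rise to articular cartilage, ligament and synovium. Transcription factors of several families are expressed there. They include the odd-skipped zinc finger proteins Osr1 and Osr2, the GATA-type repressor Trps1, the basic leucine zipper protein Creb5, the homeobox proteins Barx1 and Barx2, the forkhead protein Foxp1, the ETS protein Erg and the calcium-regulated factor Nfatc1.

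Kept cells had 200 to 6000 detected genes and at most 10% mitochondrial unique molecular identifiers (UMIs), and numbered 12446, 9305, 11264 and 11305. Their median depth was 6176.5, 7279, 6757 and 6379 UMIs per cell. Cells that passed a marker gate of muscle, endothelial, macrophage, erythroid, glial, epidermal or mural cells were set apart. This left 11513, 8816, 10582 and 10975 mesenchymal cells, with summed counts of 81278801, 73258938, 84095982 and 84631840 UMIs. Levels are CPM, a gene's UMIs scaled by the UMIs of all genes and summed over the cells of a gate, with exact 95% Poisson intervals that cover counting error only. A cell was called Gdf5-positive with at least 2 Gdf5 UMIs and Gdf5-zero with none. Cells with a single Gdf5 UMI entered neither group. Gdf5 chose the groups, so its own level is no result, and none of the 9 factors was a marker of any gate.

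Several libraries stood apart in ways their labels do not give. Xist, transcribed in female cells, was found in 64.7, 0.172, 92.2 and 91.2% of kept cells, and a transcript of 4 Y-linked genes in 18.4, 65.9, 0.0355 and 0.0265%. The E14.5 control was thus male-like, both mutant libraries female-like and the E13.5 control mixed, so sex and genotype cannot be told apart. Slc2a1 stood at 49.96, 67.1, 361 and 436 CPM in mesenchymal cells, higher in both mutant libraries. Slc2a3 stood at 5.25, 3.48, 4.34 and 2.72 CPM. Whether the 3' tags counted here lie outside the deleted part of the floxed genes was not tested, nor whether labels were exchanged, so neither deletion was checked and the mutants are named as the libraries labelled so. The share of Gdf5-positive cells given below fell from the E14.5 control to Prx1Cre;Glut1f/f;Glut3f/+ to DCKO, the order the study reported for its own cluster of Gdf5-expressing cells in the same libraries. Any pair of libraries shared 24 to 37 cell barcodes.

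The gates differed in size between libraries. Chondrocyte-gated cells, with at least 50 UMIs of 8 cartilage matrix genes per 10000 UMIs, made up 15.5, 57.4, 50.2 and 61.1% of mesenchymal cells. Mesenchymal cells near that cut, at 40 to 60 such UMIs per 10000, numbered 894, 398, 636 and 758. Chondrocyte-gated cells numbered 1786, 5061, 5316 and 6705. The number near the cut was thus largest at E13.5, where the gate held the fewest cells. The median of fibroblast marker UMIs per 10000 was 3.43, 6.11, 5.54 and 4.88 in chondrocyte-gated and 19.9, 26.8, 27.0 and 26.0 in fibroblast-gated cells. That of cartilage marker UMIs was 80.2, 157, 135 and 126 in chondrocyte-gated and 1.74, 3.58, 2.94 and 6.08 in fibroblast-gated cells. Fibroblast-gated cells, with at least 3 of 7 connective tissue markers, made up 11.7, 8.59, 12.1 and 9.33%. Mesenchymal cells outside every gate made up 66.8, 30.3, 33.1 and 24.98%. Their median of fibroblast marker UMIs per 10000 was 5.75, 11.02, 10.68 and 8.06, lowest at E13.5. That of cartilage marker UMIs was 6.48, 6.61, 6.46 and 11.33, highest in the library labelled DCKO. The part of these markers in comparisons of ungated cells between libraries was not tested. The leading genes of these ungated cells were the neutrophil genes S100a9, S100a8 and Stfa1, with Gdf5 in place 4, Cstdc5 in place 5 and the secreted Wnt antagonist gene Sfrp2 in place 6. Cells with at least 10 UMIs of S100a8 and S100a9 numbered 5, 1, 9 and 8 among mesenchymal cells. Gdf5-positive cells numbered 1427, 582, 610 and 222, or 12.4, 6.60, 5.76 and 2.02% of mesenchymal cells. Of these, 133, 112, 178 and 84 also passed the chondrocyte gate, a share of 9.32, 19.2, 29.2 and 37.8%, and 1225, 436, 395 and 114 passed no other gate. Their median depth of 6373, 6737.5, 6854 and 7179 UMIs was near that of Gdf5-zero cells at 5918.5, 7179, 6570 and 6284.5 UMIs. Within the chondrocyte gate these depths were 6652, 10930, 9028 and 9140.5 UMIs against 6736.5, 7950.5, 7895 and 7283 UMIs. Gdf5-positive cells were thus deeper in that gate in each E14.5 library. Summed chondrocyte markers in Gdf5-positive cells stood at 2518, 5002, 6279 and 6739 CPM, led by Col2a1 and with none of the 8 at 0. Their level was highest in the library labelled DCKO. The comparison with Gdf5 was also run within and outside the chondrocyte gate, as given below. Beyond that, the part of cartilage cells in it was not tested.

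The first comparison set Gdf5-positive against Gdf5-zero mesenchymal cells, to ask how closely each factor follows the interzone marker. All 9 factors were higher in Gdf5-positive cells and none was lower (edgeR quasi-likelihood test with Benjamini-Hochberg adjustment over 16041 genes, library as a block, 4 libraries). Adjusted over the list alone, 9 were higher and 0 lower. Over all genes tested, 8.43% were higher and 11.1% lower. At an unadjusted p under 0.05 no factor was lower either, against 18.2% of all genes, and DESeq2 also called 9 higher and 0 lower, against 8.26% and 10.2%. The median log2 fold change was 1.27 over the 9 factors and -0.02 over all genes. The 4 libraries served as replicates of this contrast although they differ in age and genotype. All 9 factors passed the filter on low counts. They were chosen with earlier results of these data known, and the study had listed several of them among genes higher in interzone cells. These counts are thus not independent evidence.

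Creb5 (ENSMUSG00000053007, chr6:53287270-53700376, GRCm38), a basic leucine zipper factor of the CREB and ATF family, stood at 422, 319, 317 and 204 CPM in Gdf5-positive cells and at 89.6, 56.8, 59.8 and 42.7 CPM in Gdf5-zero cells. Every Gdf5-positive value lay above every Gdf5-zero value, with the E13.5 control highest and the library labelled DCKO lowest in both groups. The log2 fold change was 2.24 ± 0.07 (SE; edgeR, adjusted p = 2.7e-07, higher in 4 of 4 libraries). Of 16040 genes tested beside Gdf5, Creb5 had the smallest p, while by fold change it was in place 123. It was also higher in Gdf5-positive cells within the chondrocyte gate, by 2.43 ± 0.15 on the log2 scale (SE), and outside that gate, by 1.86 ± 0.07.

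Osr2 (ENSMUSG00000022330, chr15:35296098-35303305), an odd-skipped zinc finger factor, stood at 409, 255, 205 and 111 CPM in Gdf5-positive cells and 65.4, 51.3, 48.7 and 26.8 CPM in Gdf5-zero cells. The E13.5 control was again highest and the library labelled DCKO lowest. The log2 fold change was 2.18 ± 0.11 (SE; edgeR, adjusted p = 4.71e-06, higher in 4 of 4 libraries). Within the chondrocyte gate Osr2 was at 397, 122, 119 and 60.6 CPM in Gdf5-positive cells and 51.5, 34.8, 34.7 and 22.4 CPM in Gdf5-zero cells. The groups did not overlap there either, and the gap was widest at E13.5.

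Its paralogue Osr1 (ENSMUSG00000048387, chr12:9570116-9581500) behaved differently between the libraries. It stood at 35.5, 44.1, 46.4 and 22.4 CPM in Gdf5-positive cells and 34.3, 7.24, 10.2 and 6.78 CPM in Gdf5-zero cells. At E13.5 the intervals of both groups overlapped, at 35.5 CPM (95% interval 32.2 to 39.1) against 34.3 CPM (95% interval 32.8 to 35.8), while in the 3 E14.5 libraries the interval of the Gdf5-positive value lay above. Within the chondrocyte gate the groups stood apart at E13.5 too, at 33.1 CPM (95% interval 23.2 to 45.8) against 3.96 CPM (95% interval 2.90 to 5.29). The log2 fold change over all libraries was 1.49 ± 0.35 (SE; edgeR, adjusted p = 0.0165, higher in 4 of 4 libraries). It was 3.11 ± 0.27 within the chondrocyte gate (SE, adjusted p = 3.86e-06) and 0.80 ± 0.25 outside it (SE, adjusted p = 0.0387). The call depended on which libraries entered, while the direction did not. Without the E14.5 control the log2 fold change was 1.12 ± 0.34 (SE, adjusted p = 0.0647), without the library labelled Prx1Cre;Glut1f/f;Glut3f/+ it was 1.26 ± 0.41 (SE, adjusted p = 0.0992), and without the library labelled DCKO it was 1.48 ± 0.46 (SE, adjusted p = 0.0839). Without the E13.5 control the log2 fold change was 2.12 ± 0.14 (SE, adjusted p = 8.14e-07). Over all settings tried the adjusted p of Osr1 ran from 2.15e-34 to 0.276, the lowest with the 2 mutant libraries alone, a pair chosen after seeing the data.

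Trps1 (ENSMUSG00000038679, chr15:50654752-50890463), a zinc finger repressor with a GATA-type finger, stood at 482, 333, 309 and 199.96 CPM in Gdf5-positive cells and 143, 153, 132 and 107 CPM in Gdf5-zero cells. The E13.5 control was highest and the library labelled DCKO lowest among Gdf5-positive cells, and the Gdf5-zero values of both controls were close to each other. Its log2 fold change was 1.15 ± 0.13 (SE; edgeR, adjusted p = 0.000486, higher in 4 of 4 libraries).

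Barx1 (ENSMUSG00000021381, chr13:48662998-48666507), a homeobox factor, stood at 357, 292, 230.4 and 129.8 CPM in Gdf5-positive cells and 79.1, 131, 93.4 and 75.3 CPM in Gdf5-zero cells. The smallest gap was in the library labelled DCKO, where the Gdf5-positive level was near the Gdf5-zero level of the E14.5 control. The log2 fold change was 1.27 ± 0.20 (SE; edgeR, adjusted p = 0.00221, higher in 4 of 4 libraries). It was 0.55 ± 0.09 within the chondrocyte gate and 2.06 ± 0.15 outside it. Its paralogue Barx2 (ENSMUSG00000032033, chr9:31846044-31913462) was scarce, at 6.81, 8.12, 3.61 and 2.49 CPM in Gdf5-positive cells from 80, 41, 19 and 5 UMIs, and 2.90, 1.96, 1.97 and 1.34 CPM in Gdf5-zero cells. Barx2 had a log2 fold change of 1.26 ± 0.24 (SE; edgeR, adjusted p = 0.00612, higher in 4 of 4 libraries). With the 2 mutant libraries alone, a choice made after seeing the data, its adjusted p was 0.238, and within the chondrocyte gate it was 0.108. Over all settings it ran from 0.000271 to 0.238.

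Foxp1 (ENSMUSG00000030067, chr6:98925338-99522721), a forkhead repressor, stood at 225, 343, 341 and 259 CPM in Gdf5-positive cells and 82.7, 116, 100.4 and 74.4 CPM in Gdf5-zero cells. Unlike Creb5, Osr2, Trps1 and Barx1, it had its lowest Gdf5-positive level at E13.5. It differed by a log2 fold change of 1.53 ± 0.06 (SE; edgeR, adjusted p = 1.42e-06, higher in 4 of 4 libraries).

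Erg (ENSMUSG00000040732, chr16:95359169-95586593), an ETS factor of endothelium and of articular cartilage, stood at 25.2, 39.6, 30.0 and 28.4 CPM in Gdf5-positive cells and 15.9, 20.5, 14.8 and 15.7 CPM in Gdf5-zero cells. The difference was in the same direction in each library, and the log2 fold change was 0.76 ± 0.09 (SE; edgeR, adjusted p = 0.000472, higher in 4 of 4 libraries). Nfatc1 (ENSMUSG00000033016, chr18:80606205-80713071), known for its role in osteoclasts and heart valves, had the smallest difference. It stood at 75.8, 62.0, 68.2 and 65.7 CPM in Gdf5-positive cells and 36.6, 55.2, 47.0 and 46.5 CPM in Gdf5-zero cells. In the E14.5 control the intervals overlapped, at 62.0 CPM (95% interval 55.3 to 69.2) against 55.2 CPM (95% interval 53.3 to 57.1). The log2 fold change was 0.47 ± 0.14 (SE; edgeR, adjusted p = 0.0386, higher in 4 of 4 libraries). Without the E13.5 control it was 0.26 ± 0.09 with an adjusted p of 0.0584. The fold change was 0.47 ± 0.17 without the library labelled Prx1Cre;Glut1f/f;Glut3f/+ (SE, adjusted p = 0.134) and 0.52 ± 0.17 without that labelled DCKO (SE, adjusted p = 0.0990), so these calls were lost with a larger SE and no smaller fold change. Within the chondrocyte gate Nfatc1 did not pass, at 0.25 ± 0.11 and an adjusted p of 0.199. Over all settings it ran from 0.000780 to 0.263.

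Splitting the cells further by Gdf5 UMIs showed how far each factor followed the marker. In the E13.5 control Osr2 stood at 65.4, 195, 335, 432 and 583 CPM in cells with 0, 1, 2 to 3, 4 to 7 and 8 or more Gdf5 UMIs. Over the same steps Creb5 stood at 89.6, 222, 358, 453 and 545 CPM and Trps1 at 143, 300.0, 409, 507 and 647 CPM. These factors increased at every step, and Barx1, at 79.1, 241, 351, 345 and 399.9 CPM, was nearly level from 2 to 7 Gdf5 UMIs. Osr1 stood at 34.3, 36.3, 31.1, 36.8 and 46.1 CPM at E13.5 and at 7.24, 20.1, 31.6, 55.7 and 111 CPM in the E14.5 control, nearly level at the earlier age and higher at each step at the later. Foxp1 at E14.5 stood at 116, 269, 313, 385 and 424 CPM in the control. It was higher at each step there, while at E13.5 it stood at 82.7, 178, 207, 249 and 222 CPM and was not highest at the last step. In the library labelled DCKO the highest step with at least 20 cells was 4 to 7 Gdf5 UMIs, with 35 cells, and Barx1 there was at 82.4 CPM. Median depth was higher in cells with 8 or more Gdf5 UMIs, at 10417 UMIs against 5918.5 in Gdf5-zero cells at E13.5.

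**Figure D1:**
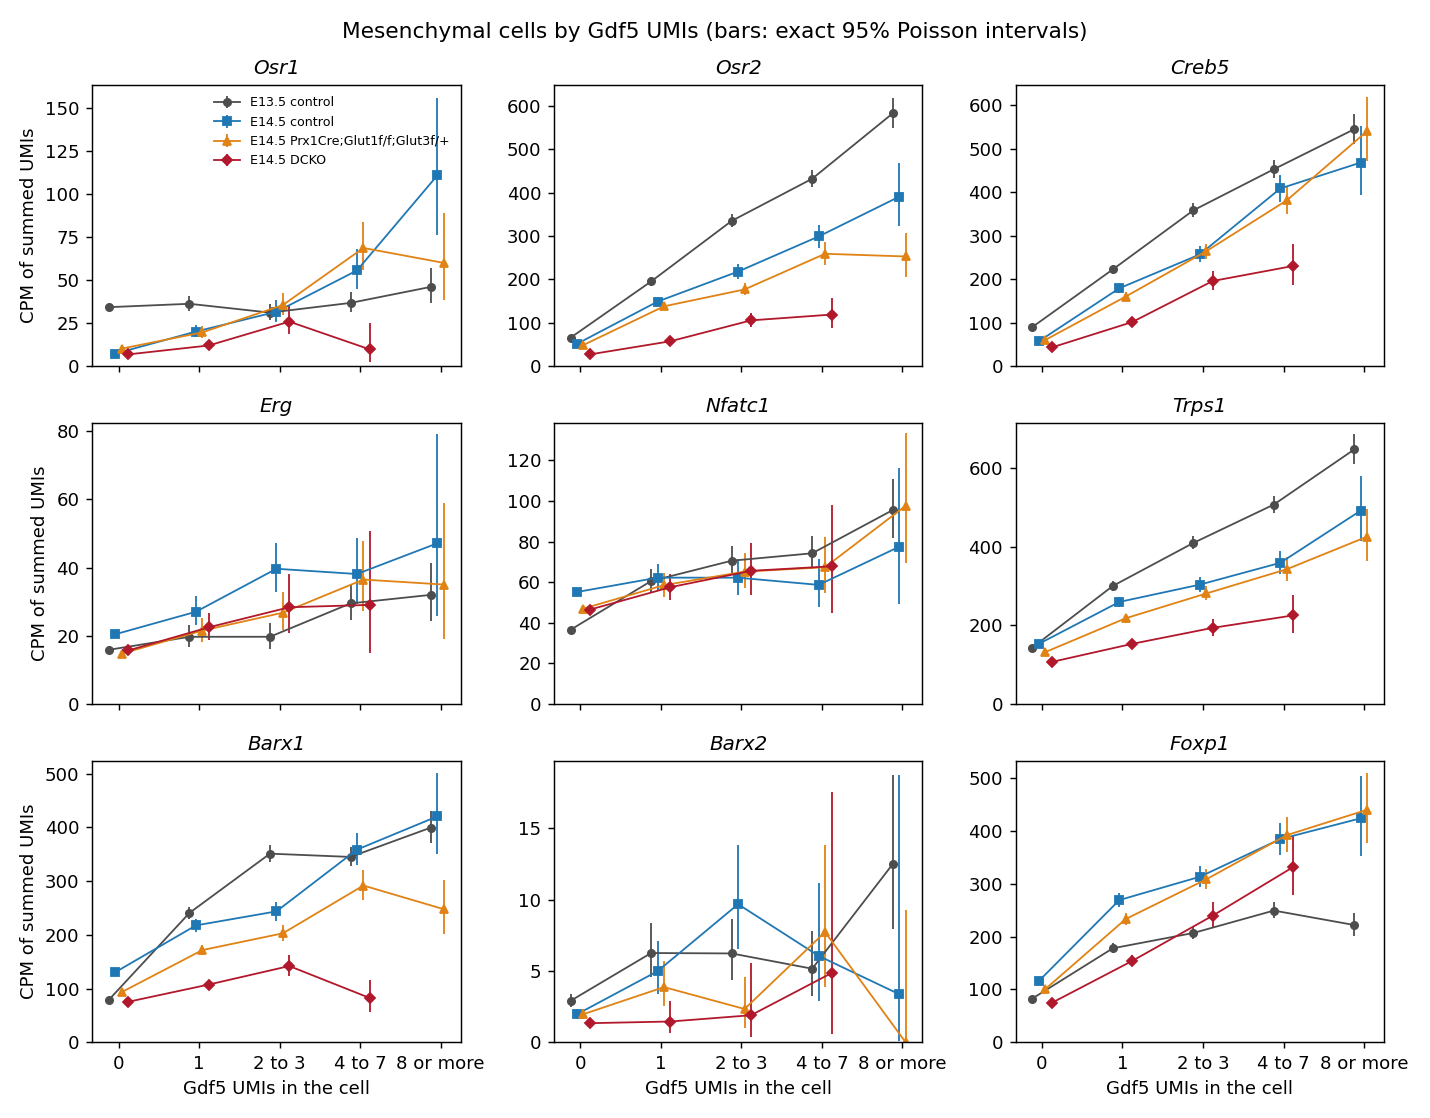
CPM of summed UMIs (y axis, from 0) of each factor in mesenchymal cells split by the Gdf5 UMIs of the cell (x axis), with 1 line per library and bars for exact 95% Poisson intervals; steps with under 20 cells are left out. Creb5, Osr2 and Trps1 increased at each step from 0 Gdf5 UMIs to the step of 4 to 7 in all 4 libraries, while Osr1 at E13.5 stayed between 31.1 and 46.1 CPM.

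Co-detection in single cells was compared at equal depth, as the share of cells with a UMI of the factor expected after thinning each cell to 2000 UMIs. Thinning left out 15, 4, 4 and 1 Gdf5-positive and 1033, 532, 727 and 806 Gdf5-zero cells under that depth. Creb5 was expected in 55.4, 45.9, 46.2 and 33.9% of Gdf5-positive cells and 16.2, 11.5, 12.4 and 9.30% of Gdf5-zero cells. Osr2 was expected in 53.9, 38.9, 33.2 and 21.3% of Gdf5-positive and 11.7, 10.4, 10.1 and 5.68% of Gdf5-zero cells. Erythroid-gated cells, which should lack both, gave 3.53, 2.20, 2.93 and 1.11% for Creb5 and 3.21, 1.85, 3.33 and 2.78% for Osr2, a measure of free RNA. Without thinning, Creb5 was found in 87.6, 76.3, 78.2 and 60.4% of Gdf5-positive cells and in 9.03, 7.45, 9.86 and 7.14% of erythroid-gated cells, whose median depth was 7534, 8743, 7358 and 7893.5 UMIs. The exact 95% interval of the first share was 87.6% (85.8 to 89.3) at E13.5 and 60.4% (53.6 to 66.8) in the library labelled DCKO.

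Trps1 was expected at 2000 UMIs in 57.2, 47.9, 43.6 and 33.6% of Gdf5-positive and 21.6, 25.5, 22.3 and 19.3% of Gdf5-zero cells. Barx1 was expected in 42.6, 38.3, 31.4 and 15.5% of Gdf5-positive and 9.44, 20.9, 14.9 and 12.4% of Gdf5-zero cells. For Barx1 the shares in the library labelled DCKO were close to each other. Foxp1 was expected in 31.4, 43.0, 46.1 and 37.7% of Gdf5-positive and 14.0, 19.9, 18.1 and 14.53% of Gdf5-zero cells. Erythroid-gated cells gave 3.63, 3.14, 8.80 and 3.92% for Trps1, 2.33, 3.86, 7.25 and 2.40% for Barx1 and 3.06, 2.13, 6.49 and 3.44% for Foxp1, below both groups of mesenchymal cells in each library. Foxp1 was also expected in 15.4, 15.4, 15.6 and 14.0% of muscle-gated cells, a share near that of Gdf5-zero cells.

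The rarer factors gave low shares. Osr1 was expected in 6.21, 9.43, 10.0 and 5.69% of Gdf5-positive and 6.45, 1.601, 2.52 and 1.69% of Gdf5-zero cells, and at E13.5 the share was no higher in Gdf5-positive cells. Nfatc1 was expected in 13.8, 10.9, 12.3 and 12.8% of Gdf5-positive and 6.73, 10.5, 9.01 and 9.05% of Gdf5-zero cells, Erg in 4.65, 6.72, 5.95 and 5.84% of Gdf5-positive and 2.86, 3.81, 2.96 and 3.28% of Gdf5-zero cells. Barx2 was expected in 1.31, 1.80, 0.929 and 0.495% of Gdf5-positive and 0.582, 0.326, 0.360 and 0.239% of Gdf5-zero cells. Erythroid-gated cells gave 1.15, 0.0883, 1.23 and 0% for Osr1, 0.619, 0.878, 1.93 and 2.55% for Nfatc1, 0.264, 0.951, 1.09 and 0.368% for Erg and 0.0770, 0, 0 and 0% for Barx2. Without thinning, 0 of 42 erythroid-gated cells of the library labelled DCKO held an Osr1 or a Barx2 UMI, which at a limit of 3 counts allows a share of up to 7.14% of such cells with a UMI. Of the 9 factors, 8 had a higher share in Gdf5-positive than in Gdf5-zero cells in every library, and the other was Osr1. Without thinning, 9 did. The share of all genes that did so is not given here, so these counts are no result about the factors.

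The same measure was taken with Gdf5 itself thinned, inside each gate. Among chondrocyte-gated cells of the E13.5 control, Creb5 was expected in 51.0% of cells with a Gdf5 UMI and 9.80% of the others. In the E14.5 control the shares were 24.1% and 7.24%, for Prx1Cre;Glut1f/f;Glut3f/+ they were 25.3% and 7.39%, and in the library labelled DCKO they were 11.9% and 5.15%. Co-detection of Creb5 with Gdf5 among chondrocyte-gated cells was thus highest at E13.5. Read the other way, 34.6% of mesenchymal cells with an Osr2 UMI held a Gdf5 UMI at E13.5, 20.3% did in the E14.5 control, 17.5% for Prx1Cre;Glut1f/f;Glut3f/+ and 9.04% in the library labelled DCKO. Gdf5 itself was expected in 12.5%, 7.13%, 6.75% and 3.22% of mesenchymal cells of the 4 libraries, which fell in the same order. Whether the shares among cells with an Osr2 UMI fell beyond that was not tested. For each of the 9 factors, most cells with a UMI of it held none of Gdf5 at this depth in each of the 4 libraries. Gdf5 was rare at this depth, and the share of all genes that did so is not given here. This count is thus no result about the factors.

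Pairs of factors were compared in the same way, as the frequency of mesenchymal cells with both over the product of the separate shares. Of the 36 pairs, 26 had a ratio above 1 in all 4 libraries, 1 was below 1 in all 4, and 9 lay on both sides. At 2000 UMIs, cells with both Osr2 and Creb5 were 1.90, 2.28, 2.12 and 2.49 times as frequent as the product of the shares. For Osr2 with Barx1 the ratios were 2.27, 1.66, 1.81 and 2.09, and for Creb5 with Foxp1 they were 1.498, 1.74, 1.79 and 2.26. For Osr1 with Creb5 they were 1.27, 2.58, 2.22 and 3.32, lowest at E13.5. The pair below 1 throughout was Osr1 with Nfatc1, with ratios of 0.646, 0.628, 0.701 and 0.483. Each pair on both sides held Osr1 or Barx2. Osr1 with Barx1 was at 0.528, 1.20, 1.13 and 0.575, Osr1 with Erg at 0.567, 1.14, 0.711 and 0.674 and Osr1 with Trps1 at 0.819, 1.33, 1.22 and 1.11, all below 1 at E13.5. These ratios describe cells of different gates pooled in a library, and no test was made of them. The share over all pairs of genes is not given here, so the counts of pairs are no trait of these factors.

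Across the gated cells the order of levels differed between the factors. By the mean over the 4 libraries, Gdf5-positive cells had the highest level for Osr2, Creb5, Nfatc1, Trps1, Barx1 and Foxp1, followed by ungated mesenchymal cells for all of these except Nfatc1. The ranges over the libraries of these neighbours in the order overlapped in each case. In ungated mesenchymal cells Creb5 stood at 193, 227, 207 and 156 CPM, Osr2 at 165, 191, 152 and 74.6 CPM and Trps1 at 247, 265, 212 and 160.2 CPM. Prehypertrophic-gated chondrocytes, with at least 3 of Ihh, Col10a1, Panx3 and Pth1r and a median depth of 11711.5, 18799.5, 19590 and 16060.5 UMIs, had the lowest mean level of Osr2, Creb5, Barx1 and Foxp1. Their range over the libraries overlapped that of the next class in the order for Osr2, Creb5 and Barx1, but not for Foxp1. Barx1 stood in prehypertrophic-gated cells at 20.5, 5.86, 10.8 and 8.01 CPM against 208, 150.2, 124 and 95.6 CPM in chondrocyte-gated cells. Trps1 stood at 130.2, 137, 110.4 and 78.6 CPM in prehypertrophic-gated cells.

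**Figure D2:**
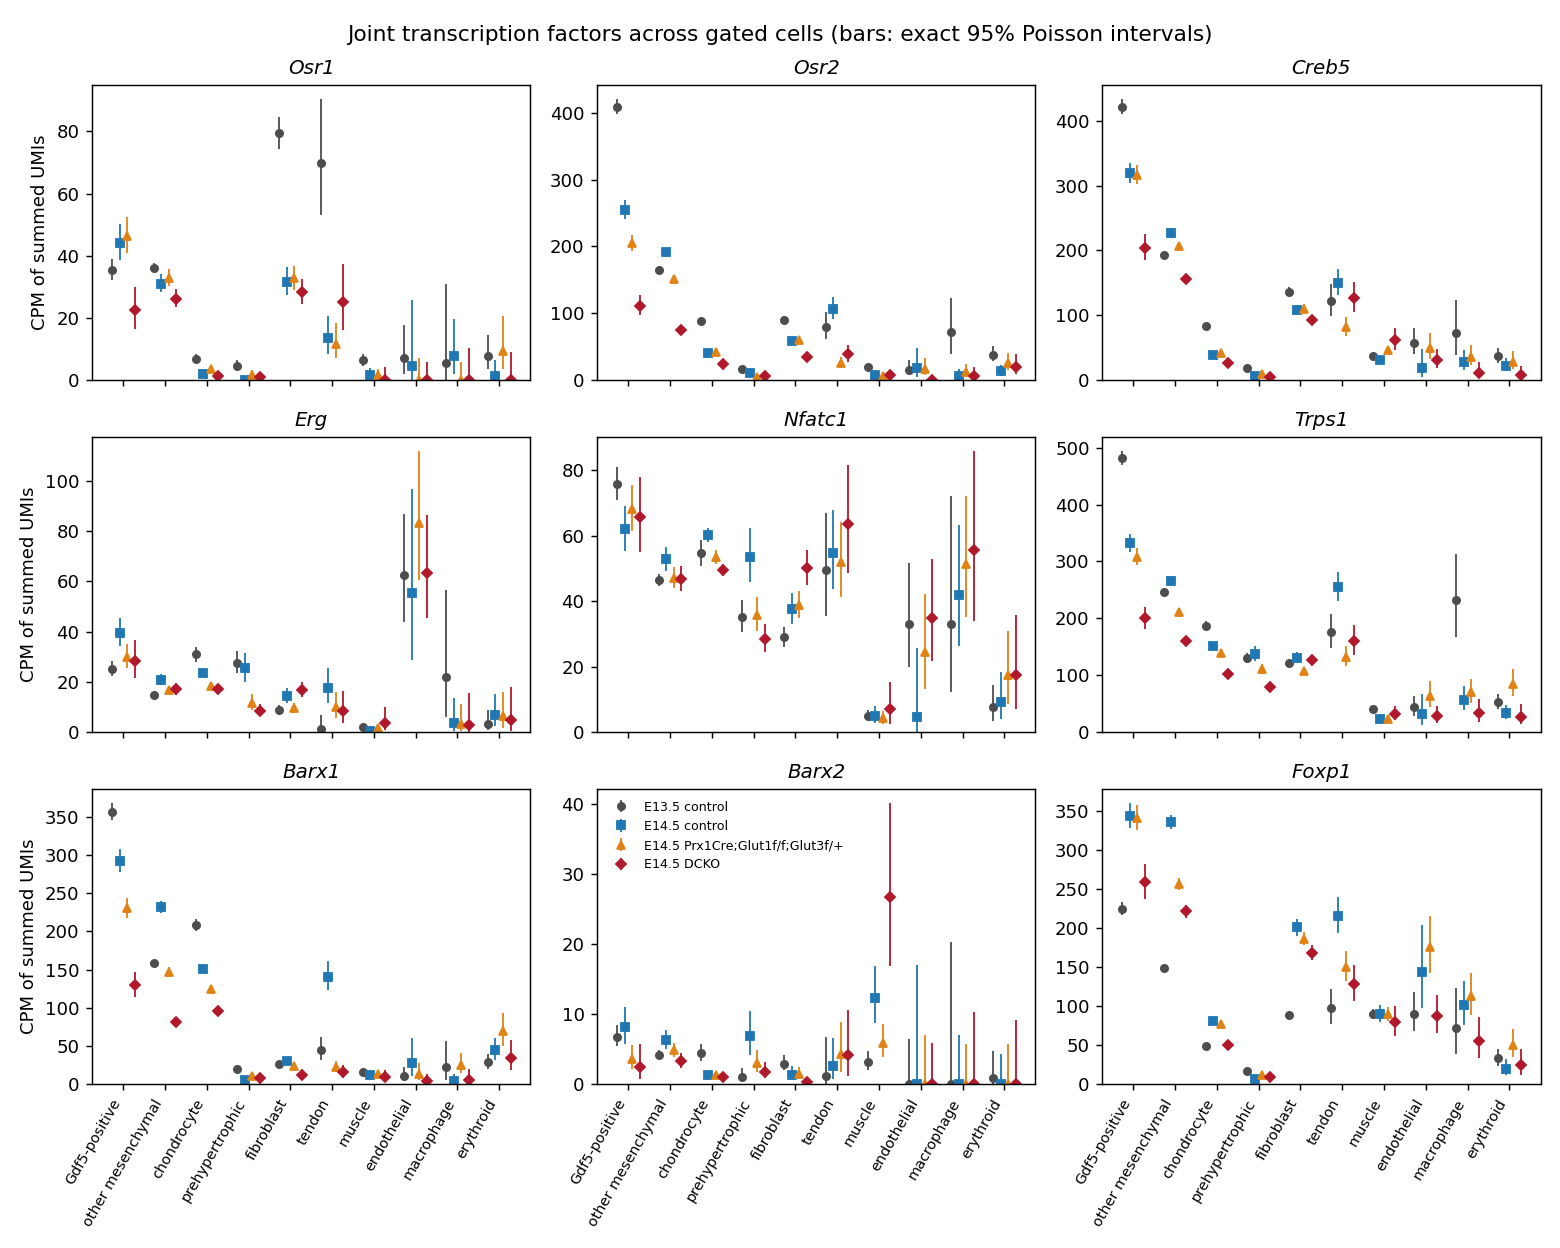
CPM of summed UMIs (y axis, from 0) of each factor in 10 groups of gated cells (x axis), with 1 point per library and bars for exact 95% Poisson intervals; Gdf5-positive cells are also counted in their own gate. Erg was highest in endothelial-gated cells, at 55.5 to 83.4 CPM, Osr1 in fibroblast-gated cells of the E13.5 control, at 79.4 CPM, and Barx2 in muscle-gated cells of the library labelled DCKO, at 26.8 CPM.

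By the mean over the 4 libraries Osr1 was highest in fibroblast-gated cells, although in the E14.5 control and the library labelled Prx1Cre;Glut1f/f;Glut3f/+ Gdf5-positive cells were higher. In fibroblast-gated cells it stood at 79.4, 31.6, 32.7 and 28.2 CPM and in tendon-gated cells at 69.9, 13.6, 11.7 and 25 CPM, both highest at E13.5. In chondrocyte-gated cells it stood at 6.92, 2.09, 3.42 and 1.33 CPM, near the 7.62, 1.16, 9.47 and 0 CPM of erythroid-gated cells, where the count of 0 allows up to 7.44 CPM. Erg was highest in endothelial-gated cells, at 62.6, 55.5, 83.4 and 63.5 CPM, above its range in each other gate. Barx2 in muscle-gated cells stood at 3.17, 12.3, 5.95 and 26.8 CPM, from 24, 38, 27 and 23 UMIs, and no UMI of it was found in endothelial- or macrophage-gated cells, which allows levels of up to 13.9 and 16.6 CPM in the library with the fewest UMIs of each gate. Nfatc1 was at 33.2, 41.9, 51.3 and 55.6 CPM in macrophage-gated cells and 5.01, 4.87, 4.19 and 6.99 CPM in muscle-gated cells. Foxp1 was found in muscle-gated cells at 89.7, 90.3, 89.9 and 79.2 CPM and in endothelial-gated cells at 90.5, 143, 176 and 87.4 CPM.

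The second test set chondrocyte-gated against fibroblast-gated cells, which places the factors between matrix-rich and connective tissue cells. Higher in chondrocyte-gated cells were 4 of the 9 factors, against 27.0% of 14126 genes tested, and lower were 3, against 27.9%. Adjusted over the list alone, 4 were higher and 4 lower, Osr2 being the one added. DESeq2 called 4 higher and 3 lower, against 20.3% and 20.0%. Barx1 was the most chondrocyte-sided. It stood at 208, 150.2, 124 and 95.6 CPM in chondrocyte-gated and 26.6, 30.0, 23.4 and 11.5 CPM in fibroblast-gated cells, a log2 fold change of 2.85 ± 0.14 (SE; edgeR, adjusted p = 2.56e-06). Erg stood at 30.9, 23.6, 18.2 and 17.2 CPM in chondrocyte-gated and 8.98, 14.52, 9.51 and 16.9 CPM in fibroblast-gated cells, a log2 fold change of 1.03 ± 0.22 (SE; edgeR, adjusted p = 0.00476). Both were higher in 4 of 4 libraries. Nfatc1 stood at 54.7, 60.3, 53.5 and 49.5 CPM in chondrocyte-gated and 29.0, 37.5, 38.9 and 50.2 CPM in fibroblast-gated cells, with a log2 fold change of 0.69 ± 0.12 (SE; edgeR, adjusted p = 0.00184). Trps1 stood at 187, 152, 140.0 and 103 CPM in chondrocyte-gated and 121, 131, 108 and 127 CPM in fibroblast-gated cells, with a log2 fold change of 0.41 ± 0.12 (SE; edgeR, adjusted p = 0.0181). These were higher in 3 of 4 libraries, the exception being that labelled DCKO. The call of Trps1 was lost without the library labelled Prx1Cre;Glut1f/f;Glut3f/+, at an adjusted p of 0.0905. Over all settings the adjusted p of Trps1 ran from 0.000310 to 0.0905.

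Osr1 was the most fibroblast-sided factor, with a log2 fold change of -3.56 ± 0.17 (SE; edgeR, adjusted p = 2.35e-06). Creb5 stood at 82.8, 39.2, 41.3 and 26.0 CPM in chondrocyte-gated and 136, 108, 110.0 and 93.1 CPM in fibroblast-gated cells, with a log2 fold change of -1.17 ± 0.14 (SE; edgeR, adjusted p = 0.000253). Foxp1 stood at 48.5, 80.8, 77.3 and 50.7 CPM in chondrocyte-gated and 88.5, 201, 186 and 168 CPM in fibroblast-gated cells, with a log2 fold change of -1.12 ± 0.11 (SE; edgeR, adjusted p = 6.94e-05). These 3 were lower in chondrocyte-gated cells in 4 of 4 libraries. Osr2 stood at 88.1, 41.0, 42.4 and 23.5 CPM in chondrocyte-gated and 90.2, 59.2, 60.1 and 34.8 CPM in fibroblast-gated cells and did not pass the test, at an adjusted p of 0.0684. Without the E13.5 control it passed, at -0.31 on the log2 scale and an adjusted p of 0.00399. It also passed with the mutant libraries alone, a choice made after seeing the data. The same held without the deepest 5% of cells and cells of several gates. Over all settings its adjusted p ran from 0.00399 to 0.469. Barx2 did not pass either, at 4.42, 1.36, 1.26 and 1.01 CPM in chondrocyte-gated and 2.96, 1.36, 1.42 and 0.281 CPM in fibroblast-gated cells and an adjusted p of 0.159. Of each paralogue pair 1 member passed this test, Osr1 on the fibroblast side and Barx1 on the chondrocyte side, and whether paralogues differ from each other was not tested.

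Ages and genotypes were compared without a test, because each had 1 library and the differences have no replicate check. Ratios are log2 ratios of CPM summed over mesenchymal cells, with exact conditional 95% intervals that cover counting error only. Between the controls, 3 of the 9 factors were at least 1.5-fold lower at E14.5, against 15.6% of 14977 genes with at least 50 UMIs, and none was 1.5-fold higher, against 9.42%. Osr1 stood at 34.6, 10.8, 13.2 and 7.49 CPM over mesenchymal cells, and its E14.5 to E13.5 ratio was -1.68 (-1.79 to -1.56). The ratio was -0.82 (-0.86 to -0.77) for Creb5 and -0.79 (-0.84 to -0.74) for Osr2. The share of chondrocyte-gated cells differed between these libraries, at 15.5% and 57.4%, so the ratios over all mesenchymal cells hold that change of makeup as well. The median of all genes was -0.14 on this scale, and scaling by trimmed means (TMM) moved the ratios of all genes by 0.13.

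Inside the gates the ages differed as follows. In chondrocyte-gated cells the E14.5 to E13.5 ratio was -1.73 (-2.15 to -1.30) for Osr1, -1.10 (-1.21 to -0.999) for Osr2 and -1.08 (-1.19 to -0.97) for Creb5. Osr1 stood there at 6.92 CPM at E13.5 and 2.09 CPM at E14.5, near the 7.62 and 1.16 CPM of erythroid-gated cells. The part of free RNA in its ratio was not tested. In ungated mesenchymal cells Osr2 was at 0.21 (0.15 to 0.27) and Creb5 at 0.24 (0.18 to 0.29), on the other side of no change. Barx1 was lower in chondrocyte-gated cells at E14.5, at -0.47 (-0.53 to -0.41), and higher in ungated cells, at 0.55 (0.50 to 0.61). Split by Gdf5, a choice made after seeing the data, Gdf5-zero ungated cells were higher at E14.5, at 0.77 (0.67 to 0.87) for Osr2, 0.46 (0.38 to 0.55) for Creb5 and 1.18 (1.09 to 1.27) for Barx1. Gdf5-positive ungated cells were at -0.42 (-0.52 to -0.32), -0.15 (-0.25 to -0.06) and -0.12 (-0.22 to -0.02) for the same factors. Osr2 was lower there, while Creb5 and Barx1 were near the median of all genes over mesenchymal cells, -0.14. With a TMM shift of 0.13 over mesenchymal cells, the direction of Creb5 and Barx1 there was not settled. Foxp1 was higher at E14.5 in Gdf5-positive, chondrocyte-gated, fibroblast-gated and ungated cells, at 0.61 (0.52 to 0.70), 0.74 (0.62 to 0.86), 1.18 (1.06 to 1.30) and 1.18 (1.12 to 1.23). In prehypertrophic-gated cells it was lower, at -1.35 (-2.13 to -0.65). Foxp1 ranged there from 6.51 to 16.6 CPM over the libraries, below the 19.8 to 50.5 CPM of erythroid-gated cells. The part of free RNA in this ratio was not tested. Osr1 in fibroblast-gated cells was lower at E14.5, at -1.33 (-1.55 to -1.11), while in Gdf5-positive cells it was slightly higher, at 0.31 (0.07 to 0.55). Since the share of chondrocyte-gated cells among Gdf5-positive cells differed between libraries, these cells were also split by gate, a choice made after seeing the data. Osr1 was then at 0.82 (0.55 to 1.08) in Gdf5-positive cells outside every other gate and at -1.18 (-2.05 to -0.35) in chondrocyte-gated Gdf5-positive cells, and Foxp1 at 0.83 (0.73 to 0.93) and -0.18 (-0.51 to 0.16). The difference between these parts was not tested.

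The library labelled Prx1Cre;Glut1f/f;Glut3f/+ was then set against the E14.5 control, which also serves the comparisons of ages and of the library labelled DCKO. None of the 9 factors was 1.5-fold higher or lower over mesenchymal cells, against 3.47% and 3.45% of 14850 genes. Barx1 stood at 134, 149, 108 and 78.7 CPM over mesenchymal cells of the 4 libraries, and its ratio to the E14.5 control was -0.46 (-0.50 to -0.42). Erg was at -0.46 (-0.56 to -0.35) and Creb5 at -0.02 (-0.07 to 0.03), which with TMM scaling was 0.06. In Gdf5-positive cells the ratio was -0.01 (-0.11 to 0.09) for Creb5, -0.01 (-0.10 to 0.09) for Foxp1, -0.31 (-0.43 to -0.20) for Osr2 and -0.34 (-0.45 to -0.23) for Barx1. In Gdf5-positive cells outside every other gate it was 0.14 (0.02 to 0.25) for Creb5, 0.05 (-0.06 to 0.17) for Foxp1, -0.24 (-0.38 to -0.10) for Osr2 and -0.31 (-0.44 to -0.17) for Barx1. In chondrocyte-gated Gdf5-positive cells it was 0.31 (0.05 to 0.57), 0.71 (0.44 to 0.98), -0.04 (-0.33 to 0.25) and -0.01 (-0.25 to 0.22) for the same factors, so Osr2 and Barx1 were within counting error of the control there.

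In the library labelled DCKO, 6 of the 9 factors were at least 1.5-fold lower than in the E14.5 control over mesenchymal cells, against 11.6% of 14755 genes. None was 1.5-fold higher, against 3.56%. The 6 were Osr2, Barx1, Barx2, Foxp1, Creb5 and Trps1. Osr2 stood at 127, 73.3, 65.5 and 30.8 CPM over mesenchymal cells of the 4 libraries, and its ratio was -1.25 (-1.32 to -1.18). The ratio was -0.92 (-0.96 to -0.87) for Barx1, -0.78 (-0.82 to -0.73) for Foxp1, -0.75 (-0.81 to -0.70) for Creb5 and -0.63 (-0.67 to -0.59) for Trps1. Nfatc1 was at -0.24 (-0.30 to -0.17). The median ratio was -0.75 over the 9 factors and -0.19 over all genes, and TMM scaling moved the ratios by 0.17. With that scaling 4 of the 6 were at least 1.5-fold lower, against 6.59% of all genes, and none higher, against 5.63%, while Creb5 was at -0.58 and Trps1 at -0.46. Sex, Slc2a1 and the share of Gdf5-positive cells moved with this comparison, and their part in it was not tested.

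This library held fewer Gdf5-positive cells, so the comparison was also made inside the gates. In Gdf5-positive cells the ratio of the library labelled DCKO to the E14.5 control was -1.19 (-1.40 to -0.99) for Osr2, -1.17 (-1.36 to -0.98) for Barx1 and -0.73 (-0.89 to -0.58) for Trps1. It was -0.98 (-1.48 to -0.51) for Osr1, -0.64 (-0.80 to -0.48) for Creb5, -0.41 (-0.55 to -0.26) for Foxp1 and 0.08 (-0.22 to 0.38) for Nfatc1. Of the Gdf5-positive cells, 84 of 222 were chondrocyte-gated in this library and 112 of 582 in the E14.5 control, so these ratios hold a change of makeup. In Gdf5-positive cells outside every other gate, a split chosen after seeing the data, the ratio was -0.86 (-1.13 to -0.60) for Osr2, -1.33 (-1.63 to -1.04) for Barx1, -0.47 (-0.69 to -0.26) for Trps1, -0.19 (-0.39 to 0.00) for Creb5, -0.22 (-0.76 to 0.28) for Osr1 and 0.01 (-0.17 to 0.19) for Foxp1. In chondrocyte-gated Gdf5-positive cells it was -1.01 (-1.47 to -0.56) for Osr2, -0.28 (-0.59 to 0.02) for Barx1, -0.57 (-0.88 to -0.26) for Trps1, -0.48 (-0.85 to -0.11) for Creb5 and -0.21 (-0.60 to 0.17) for Foxp1. Osr2 was at least 1.5-fold lower in both parts and Barx1 in the first, while Foxp1 was within counting error of the control in both. In cells with 2 to 3 Gdf5 UMIs in both libraries, not split by gate, the ratio was -1.05 (-1.30 to -0.80) for Osr2, -0.78 (-1.001 to -0.56) for Barx1 and -0.39 (-0.59 to -0.20) for Creb5. Nfatc1 was within counting error of the control in these cells, at 0.08 (-0.28 to 0.43). In chondrocyte-gated cells the ratio was -0.80 (-0.90 to -0.70) for Osr2 and -0.65 (-0.70 to -0.60) for Barx1. In fibroblast-gated cells it was -1.38 (-1.77 to -1.0004) for Barx1, -0.05 (-0.18 to 0.09) for Trps1 and 0.42 (0.18 to 0.66) for Nfatc1, the last of these being higher.

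**Figure D3:**
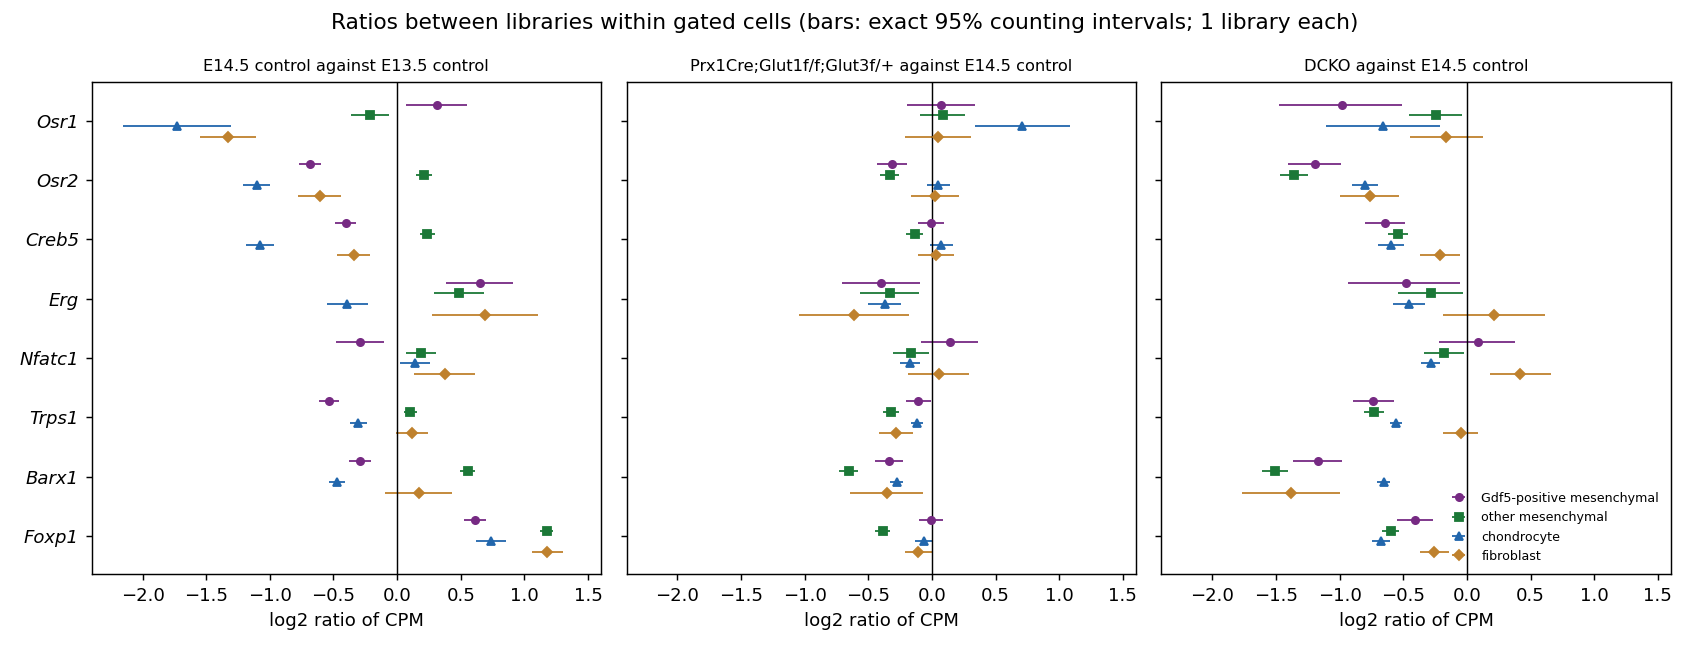
Log2 ratio of CPM (x axis) of each factor but Barx2 (y axis) in 4 groups of gated cells, for the E14.5 against the E13.5 control and for each library labelled mutant against the E14.5 control, with 1 library on each side and bars for exact 95% counting intervals. Osr2 and Barx1 lay below 0 in all 4 groups for the library labelled DCKO, and Foxp1 lay above 0 in all 4 groups for the ages.

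The library labelled DCKO was also set against that labelled Prx1Cre;Glut1f/f;Glut3f/+, both female-like, which shares the library labelled DCKO with the previous comparison. Here 5 of the 9 factors were at least 1.5-fold lower over mesenchymal cells, against 8.09% of 14876 genes, and none was 1.5-fold higher, against 2.02%. The ratio was -1.09 (-1.16 to -1.02) for Osr2, -0.81 (-0.96 to -0.67) for Osr1, -0.74 (-0.79 to -0.68) for Creb5, -0.70 (-1.04 to -0.36) for Barx2 and -0.59 (-0.63 to -0.54) for Foxp1. Erg was at 0.01 (-0.09 to 0.12) and Nfatc1 at -0.05 (-0.11 to 0.02), both within counting error, and with TMM scaling Nfatc1 was at 0.05 and Foxp1, no longer past 1.5-fold, at -0.49. In Gdf5-positive cells Barx1 was at -0.83 (-1.03 to -0.63) and Osr2 at -0.88 (-1.09 to -0.67), and in those outside every other gate they were at -1.02 (-1.33 to -0.72) and -0.62 (-0.89 to -0.35).

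The same measures were taken for 11 close relatives of the factors. Of these (Fli1, Etv1, Atf2, Atf7, Creb1, Nfatc2, Nfatc3, Nfatc4, Nfat5, Foxp2 and Foxp4), 2 were higher in Gdf5-positive cells (edgeR), against 8.43% of all genes tested, none was lower, against 11.1%, and the other 9 did not pass. By edgeR none was lower at an unadjusted p under 0.05 either. Their median log2 fold change was 0.16. The 2 were Creb1 (0.33 ± 0.07, adjusted p = 0.0129) and Foxp4 (0.26 ± 0.07, adjusted p = 0.0354), and the next largest changes were in Atf2 (0.20 ± 0.07, adjusted p = 0.0723) and Etv1 (-0.19 ± 0.15, adjusted p = 0.424). Between chondrocyte- and fibroblast-gated cells 3 were higher and 3 lower, against 27.0% and 27.9% of all genes, and the 4 largest changes were in Nfatc2 (1.6001 ± 0.12, adjusted p = 2e-05), Nfatc4 (-1.23 ± 0.12, adjusted p = 6.86e-05), Etv1 (-0.70 ± 0.15, adjusted p = 0.00420) and Atf7 (0.29 ± 0.09, adjusted p = 0.0271). In the library labelled DCKO none of the 11 was 1.5-fold off the E14.5 control, against 3.56% of all genes higher and 11.6% lower, with Foxp4 lowest at -0.52. None was 1.5-fold off it for that labelled Prx1Cre;Glut1f/f;Glut3f/+ either, against 3.47% and 3.45%, and between the controls 3 were 1.5-fold lower at E14.5, against 15.6%, with Nfatc4 at -1.02, Fli1 at -0.72 and Foxp4 at -0.69.

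Of 22 other genes of joint formation, 21 passed the filter in the first test, and 14 were higher in Gdf5-positive cells, against 8.43% of all genes tested, 1 was lower, against 11.1%, and 6 did not pass. The 4 largest changes were in Sfrp2 (2.38 ± 0.08, adjusted p = 3.8e-07), the heparan sulfatase gene Sulf1 (2.32 ± 0.13, adjusted p = 6.93e-06), Dkk3 (2.20 ± 0.10, adjusted p = 2.3e-06) and Gas1 (2.08 ± 0.08, adjusted p = 1.12e-06). The gene that was lower was Nog, of a BMP antagonist, at -1.11 ± 0.31, adjusted p = 0.0361. Between chondrocyte- and fibroblast-gated cells 4 were higher and 15 lower, against 27.0% and 27.9% of all genes, with the 4 largest changes in Wnt16 (-3.76 ± 0.52, adjusted p = 0.000498), Nog (3.68 ± 0.11, adjusted p = 3.44e-07), Gdf6 (-3.36 ± 0.38, adjusted p = 0.000171) and Cd44 (-3.36 ± 0.22, adjusted p = 9.58e-06). In the library labelled DCKO 8 of 21 were at least 1.5-fold lower than in the E14.5 control, against 11.6% of all genes, and none higher, against 3.56%, with Gdf6 at -1.595, Gas1 at -1.37, the lubricin gene Prg4 at -1.32 and Dkk3 at -1.26. Between the controls 2 of 21 were 1.5-fold higher at E14.5, against 9.42%, and 5 lower, against 15.6%, with Dkk3 at 1.32, Lmx1b at -1.30, Prg4 at 1.03 and Pitx1 at -0.99. For the library labelled Prx1Cre;Glut1f/f;Glut3f/+ the count was 1 lower, against 3.45%, Dkk3 at -0.65. Between the mutant libraries 8 joint genes and 1 relative, Etv1 at -0.75, were 1.5-fold lower in that labelled DCKO, against 8.09% of all genes.

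Genes with the most similar pattern were sought over 38 units, each a gated class of at least 50 cells in a library, among 9476 genes that reached 20 CPM in any unit. The measure was Pearson's r of log2(CPM + 5), a description without a test, since units share libraries. The 3 most similar genes were Gdf5 (0.91), Lrig3 (0.90) and Sfrp2 (0.89) for Osr2 and Sfrp2 (0.92), Gas1 (0.89) and Gas2 (0.87) for Creb5. For Barx1 Lrig3 (0.83) and Pthlh (0.83) were among them. They were Sulf2 (0.89), Stxbp6 (0.88) and Syne4 (0.87) for Trps1 and Cxcl14 (0.93), Hic1 (0.90) and Ebf2 (0.90) for Osr1. For Foxp1 they were Zfp36l1 (0.90), Nfia (0.87) and Tle5 (0.87), and for Erg Arhgef5 (0.92), Cdc42ep3 (0.85) and Fzd6 (0.85). Nfatc1 was most like Mapre2 (0.89), Rin2 (0.88) and Gabarap (0.87), and Barx2, which never passed 26.8 CPM, most like Rragd (0.75), Gfra1 (0.74) and Ptpn21 (0.73). Gdf5 itself was thus the gene most like Osr2, and Sfrp2 the gene most like Creb5.

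The promoter of Creb5 is shown because Creb5 had the smallest p with Gdf5 and because its protein family is known for a DNA motif, the cyclic AMP response element TGACGTCA, which reads the same on both strands. RefSeq promoter entries on GRCm38.p6 were held for 4 of the 9 factors, with 2 for Creb5, 3 for Erg, 1 for Barx1 and 3 for Foxp1. The stretch printed here ends at the base before the annotated gene start, so it lies upstream of the first exon, at chr6:53287053-53287269 on the plus strand. Capitals mark the match to the element, at chr6:53287258-53287265. The other Creb5 entry, with 176 bases at chr6:53573124-53573299, held no match. Of 32851 promoters in the RefSeq table, 1.55% held these letters in the 250 bases before the start. The AP-1 motif TGANTCA, with N for any base, was also searched for, and neither Creb5 stretch held it. In the same bases 6.75% of the promoters did. A match describes the sequence only.
Creb5 upstream stretch: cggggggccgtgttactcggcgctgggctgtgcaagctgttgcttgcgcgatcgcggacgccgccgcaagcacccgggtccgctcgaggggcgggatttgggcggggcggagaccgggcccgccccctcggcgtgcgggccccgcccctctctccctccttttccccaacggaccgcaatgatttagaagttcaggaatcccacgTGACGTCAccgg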

How the data were processed

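Single cells of mouse embryonic knee joint regions were counted in 4 libraries, 1 per age and genotype. The deposited tables hold UMI counts per gene and cell, which the authors made with Cell Ranger on build mm10 (version 6.1.2 per the file headers). The authors analysed them further with Seurat 3. Those clusters were not used here, and cells were gated here by marker genes: at least 3 different markers, at least 50 cartilage marker UMIs per 10000 for chondrocytes, at least 100 haemoglobin UMIs per 10000 for erythroid cells and at least 2 Gdf5 UMIs for Gdf5-positive cells. The gate limits were set after seeing the markers' distributions, not those of the 9 factors. Gates that count markers pass deeper cells more readily. Doublets were not called and none were removed. UMIs were summed per library and gate. Sums were tested with edgeR 4.0.16 (R 4.3.3; quasi-likelihood, TMM, filterByExpr, library as a block, adjusted p under 0.05) and with DESeq2 as pydeseq2 0.5.4 (genes with at least 10 UMIs). The SE was taken from the fold change and its F statistic. The test was also run on simulated data, but the outcome is not given here and no result rests on it. Ratios between libraries were called at 1.5-fold among genes with at least 50 UMIs over both. Python 3.11.15, numpy 2.4.6, scipy 1.17.1, pandas 2.3.3 and matplotlib 3.10.9 were used. Gene positions are from GENCODE M21, and a count of 0 was given a limit of 3 counts.

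Alternatives were DESeq2 in place of edgeR, other size factors, no filter on low counts, leaving out each library, stricter cell filters, removal of the deepest 5% of cells and of cells in several gates as possible doublets, other Gdf5 gates, windows of depth, single gates, Gdf5-positive cells split by gate, TMM scaling or means over cells for ratios, 2-fold in place of 1.5-fold, and other depths of thinning. The control and the mutant libraries alone, and the splits of Gdf5-positive cells by gate and of ungated cells by Gdf5, were chosen after seeing the data. The 9 factors, 11 close relatives and 22 other joint genes were chosen with earlier results of these data known. The study named Osr2 and Creb5 with its interzone cluster and listed Osr2, Creb5, Trps1, Foxp1 and Barx1 among genes higher in interzone cells at E13.5, so their counts with Gdf5, those adjusted over the list alone among them, are not independent evidence. Named genes were the 9 factors, the 3 genes most like each, and the 4 largest changes of each list. A gene among those most like Barx1 is not reported here. The other genes named were chosen after their values were seen.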

Additional observations from a re-analysis of the deposited data

Results flagged for a closer look

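In 5 factors the E14.5 to E13.5 ratio of the controls had opposite signs in 2 of 3 groups of cells, with both 95% counting intervals away from 0 and a difference of at least 1 on the log2 scale. The groups compared were chondrocyte-gated, fibroblast-gated and ungated mesenchymal cells. The share of all genes that meet this rule is not given here, so the count is no result about these factors. For Osr2 the difference between ungated mesenchymal cells and chondrocyte-gated cells was 1.32, from 0.21 (0.15 to 0.27) against -1.10 (-1.21 to -0.999). For Creb5 the same difference was 1.32, from 0.24 (0.18 to 0.29) against -1.08 (-1.19 to -0.97). For Barx1 it was 1.02, from 0.55 (0.50 to 0.61) against -0.47 (-0.53 to -0.41). For the scarce Barx2 it was 2.28, from 0.58 (0.21 to 0.94) against -1.70 (-2.23 to -1.17). In ungated cells without Gdf5 UMIs the ratio was 0.77 (0.67 to 0.87) for Osr2, 0.46 (0.38 to 0.55) for Creb5 and 1.18 (1.09 to 1.27) for Barx1. In Gdf5-positive ungated cells it was -0.42 (-0.52 to -0.32), -0.15 (-0.25 to -0.06) and -0.12 (-0.22 to -0.02) for the same factors. Those values of Creb5 and Barx1 were near the median of all genes over mesenchymal cells, -0.14. TMM scaling moved the ratios over mesenchymal cells by 0.13, so the direction of these 2 values was not settled. For Erg the difference between fibroblast-gated and chondrocyte-gated cells was 1.08, from 0.69 (0.28 to 1.11) against -0.39 (-0.55 to -0.22). Outside these 3 groups, Foxp1 was at -1.35 (-2.13 to -0.65) in prehypertrophic-gated cells, against 1.18 (1.12 to 1.23) in ungated cells, and Osr1 at 0.31 (0.07 to 0.55) in Gdf5-positive cells, against -1.33 (-1.55 to -1.11) in fibroblast-gated cells. Foxp1 in prehypertrophic-gated cells, at 6.51 to 16.6 CPM over the libraries, lay below the 19.8 to 50.5 CPM of erythroid-gated cells. The part of free RNA in its ratio was not tested. Each ratio rests on 1 library per age, and no difference between groups was tested. The median of fibroblast marker UMIs in ungated cells, on the scale given with the gates, was 5.75 at E13.5 and 11.02 in the E14.5 control. In chondrocyte-gated cells it was 3.43 and 6.11. The median of cartilage marker UMIs in ungated cells was 6.48 and 6.61. Age, the E14.5 control's sex-linked transcripts, the gates' share of cells and the fibroblast markers moved together, and their parts cannot be told apart.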

How the results depend on the processing

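The count of 9 factors higher and 0 lower in Gdf5-positive cells was the same with RLE size factors, without a filter on low counts, with stricter cell filters, with other Gdf5 gates, without the deepest 5% of cells and cells of several gates, outside the chondrocyte gate and with DESeq2. Over these settings 5.23 to 9.86% of all genes were higher and 8.44 to 12.8% lower. Leaving out 1 library in turn gave 7 to 8 higher and 0 to 0 lower, against 4.25 to 9.14% and 4.88 to 12.5% of all genes. The highest of these shares were those without the E13.5 control and the lowest those without Prx1Cre;Glut1f/f;Glut3f/+. It was 8 in cells of 4000 to 10000 UMIs, against 7.40% of all genes, 7 within the chondrocyte gate, against 4.20%, 7 with the control libraries alone, against 2.99%, and 8 with the mutant libraries alone, against 7.43%, both of these pairs chosen after seeing the data. Between chondrocyte- and fibroblast-gated cells, leaving out 1 library gave 3 to 4 higher and 3 to 4 lower, against 19.7 to 28.0% and 20.8 to 27.5% of all genes.

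The counts past the fold between libraries depended on the setting. At 2-fold they were 1 in place of 3 for the ages, 1 in place of 6 for the library labelled DCKO against the E14.5 control, and 1 in place of 5 for it against that labelled Prx1Cre;Glut1f/f;Glut3f/+. Each was lower, and the shares of all genes at least 2-fold lower were 6.46%, 3.32% and 2.55%. The 3 for the ages were all lower at E14.5. In chondrocyte-gated cells alone the count for the ages was 5, with 4 lower, against 11.9% of all genes in these cells, and 1 higher, against 7.98%. In Gdf5-positive cells 1 was lower, against 8.75%, and 2 higher, against 8.73%. In fibroblast-gated cells 2 of 8 with at least 50 UMIs were lower, against 10.2%, and 2 higher, against 8.68%, and in ungated cells 0 were lower, against 9.15%, and 1 higher, against 10.4%. For Prx1Cre;Glut1f/f;Glut3f/+ against the control the count was 1 in place of 0 in chondrocyte-gated cells alone, higher, against 3.43% of all genes, 1 in Gdf5-positive cells alone, lower, against 6.62%, 1 in ungated cells, Barx1 at -0.66 (-0.73 to -0.58), against 4.81% lower, and 1 of 8 in fibroblast-gated cells, Erg at -0.61 (-1.05 to -0.18), against 2.26% lower. For DCKO against the control the 6 became 5 of 9 in chondrocyte-gated cells, against 11.4% of all genes, 5 of 8 in Gdf5-positive cells, against 12.7%, 5 of 9 in ungated cells, against 11.1%, and 2 of 8 in fibroblast-gated cells, against 4.12%, all lower. Between the mutant libraries the 5 became 4 of 9, against 5.24%, 5 of 8, against 6.13%, 2 of 9, against 6.43%, and 2 of 8, against 3.72%, in the same groups, and in fibroblast-gated cells 1 was higher, against 2.54%. With TMM scaling 4 factors were at least 1.5-fold lower in each comparison of the library labelled DCKO, against 6.59% of all genes for that with the E14.5 control and 5.98% for the other. The cause was not tested beyond the stricter limit of 2-fold, which passes fewer genes by its construction. Of the other values for single factors, 269 kept their direction and side of the threshold, 26 lost the call, 11 gained it and 10 changed sign. The 10 were in ratios within Gdf5-positive cells split by the chondrocyte gate, chosen after seeing the data. The ratios of single factors in the other gates were not among the values compared here, and some of them differ in sign from those over all mesenchymal cells, such as Osr2 and Creb5 for the ages in ungated cells, Barx1 for the ages in chondrocyte-gated cells, and Nfatc1 for DCKO in fibroblast-gated cells. For the split, of 64 values 33 kept their direction and side of 1.5-fold, 13 lost it and 8 gained it. Between the ages the changes of sign were Osr1, at -1.18 within the chondrocyte gate, and Foxp1, at -0.18. For Prx1Cre;Glut1f/f;Glut3f/+ against the control, Creb5 was at 0.31 within and 0.14 outside the gates, Foxp1 at 0.71 and 0.0549, and Trps1 at 0.16 within the chondrocyte gate. For DCKO against the control they were Nfatc1, at -0.0937 within that gate, and Foxp1, at 0.0121 outside the gates, and between the mutant libraries Erg, at 0.16 outside them. Of these 10, the counting intervals of 4 lay away from 0: Osr1 for the ages, both values of Creb5, and Foxp1 within the chondrocyte gate for Prx1Cre;Glut1f/f;Glut3f/+. With 1 library per age and genotype, depth narrows only the counting error of a ratio.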
